A study of Mus musculus with 7 samples.

Results

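Transcripts of 10 transcription factors that direct epidermal differentiation were read out in mouse skin with and without Tuft1, the gene of tuftelin 1, which the study's title describes as associated with desmosomes. The factors were picked by name (Trp63, Grhl1, Grhl3, Gata3, Ovol1, Dlx3, Zfp750, Prdm1, Klf4 and Klf5) among the 56691 genes of the count table. Each of the 10 had enough counts to be among the 12888 genes tested. The groups were skin that looked healthy from 3 Tuft1 knockout mice (mice 2, 3 and 4) and healthy skin from 4 wild-type mice (mice 5, 6, 7 and 8), with 1 library per mouse. The labels give the genotype only as knockout or wild type, and name neither the deleted part of the gene, the strain, the sex, the age nor the body site. The skin was taken whole, so a lower level can stand for fewer cells of a type or for less RNA in each cell, and these cannot be told apart.

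The outer skin is a layered epithelium in which dividing basal keratinocytes move outward, stop dividing and build a cornified barrier. The p63 protein, encoded by Trp63, establishes and maintains the basal state, and it also starts a cascade in which Zfp750, Klf4 and the grainyhead factors switch on genes of the upper layers. Several of the same factors act in the hair follicle and sebaceous gland, and Gata3, Prdm1, Klf4 and Klf5 also work in immune, vascular or muscle cells, which whole skin contains.

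None of the 10 factors passed edgeR's quasi-likelihood test with Benjamini-Hochberg adjustment over all genes between the genotypes (adjusted p = 1.00 for each). This threshold was passed by 0.0233% of all genes tested (0.00776% lower and 0.0155% higher in the knockout). Likewise 0 of the 10 had an unadjusted p under 0.05, against 4.31% of all genes, and 0 were called by the DESeq2 Wald test or by limma-voom, in which 0 had an unadjusted p under 0.05 as well. EdgeR without a filter on low counts also called 0 of them. Over all genes, the DESeq2 Wald test called 0.601%, limma-voom 0.171% and edgeR without the filter 0.397%. In 8 of the 10 the fitted change lay below 0, against 50.5% of all genes, with a median log2 fold change (knockout over wild type) of -0.28 beside -0.01 over all genes tested. The other two, Ovol1 and Dlx3, lay above 0. The levels of knockout and wild-type mice overlapped for each of the 10, while 3.45% of all genes tested were separated with the knockout lower and 3.44% with the knockout higher.

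Levels are given as CPM, the share of a library's counts after its total was scaled with the TMM method. The libraries read the 3' ends of polyadenylated RNA, so a gene's count is not expected to grow with its length. Comparing CPM between genes further assumes that their 3' ends were captured and counted alike, which was not tested. Libraries held 7009237 to 9256459 counts. The Tuft1 transcript stood at 19.9, 29.1 and 17.2 CPM for knockout mice 2, 3 and 4, set against 106, 104, 55.6 and 114 CPM for wild-type mice 5, 6, 7 and 8 (log2 fold change -2.10, SE 0.39, edgeR adjusted p = 0.172), without overlap. The basal keratin Krt5, at 3816 ± 506 CPM (SD, n = 4) in wild-type skin, and the cornified envelope gene Lor, at 6170 ± 1385 CPM, marked the tissue as epidermis-bearing skin.

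**Figure D1:**
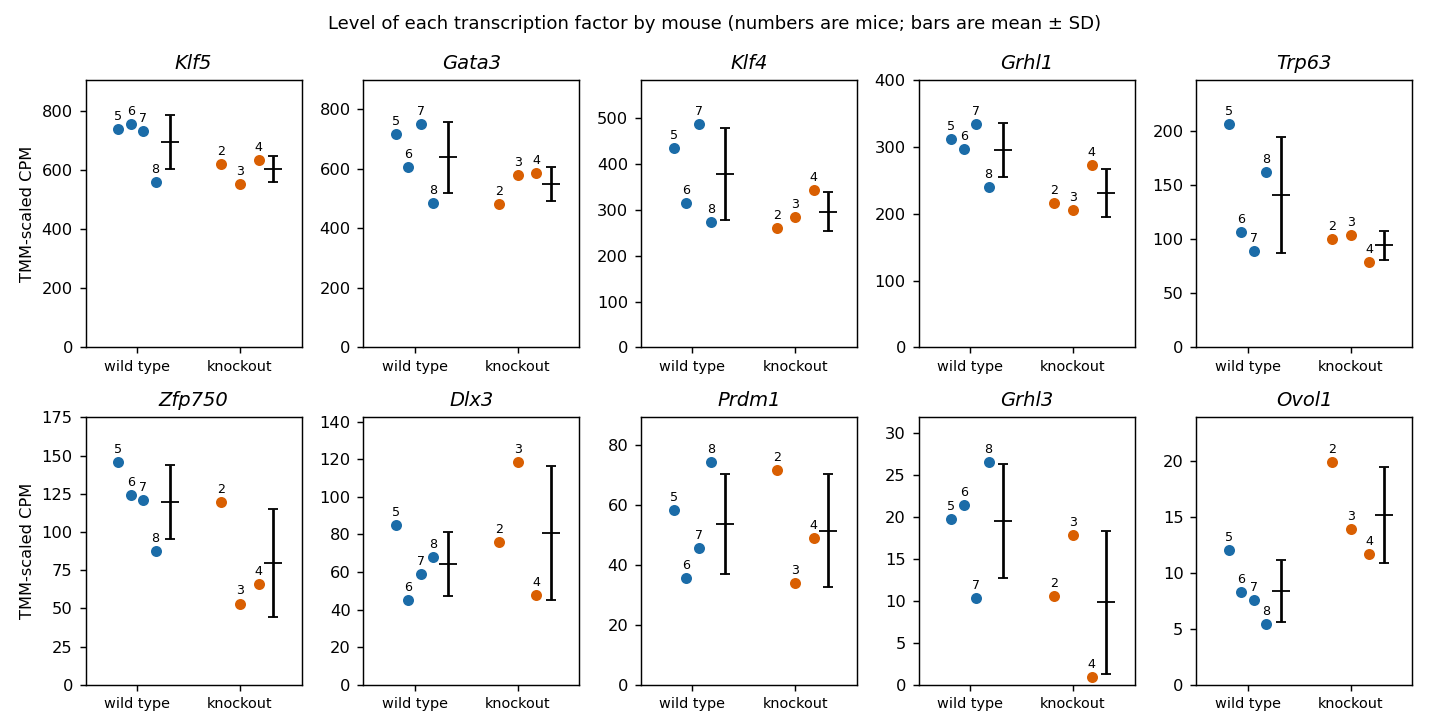
TMM-scaled CPM of the 10 transcription factors in each mouse, in order of wild-type mean, with mouse numbers beside the points and mean ± SD as bars (n = 4 wild type in blue, n = 3 knockout in orange). Wild-type mouse 8 lies within the knockout range for 6 of the 10 factors, and the groups overlap for each factor.

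In wild-type skin the 10 factors spanned an 83.2-fold range of mean level. Klf5 (695 ± 91.8 CPM) and Gata3 (639 ± 120 CPM) were the most abundant and did not separate, since their ranges over the 4 mice overlapped and Klf5 was the higher in 3 of 4. Klf4 (377 ± 99.9 CPM) and Grhl1 (295 ± 40.1 CPM) came next. Their ranges overlapped each other, although Klf4 exceeded Grhl1 in each of the 7 mice, and Gata3 exceeded Klf4 in each of the 7. Trp63 (141 ± 53.5 CPM) and Zfp750 (120 ± 24.1 CPM) stood below Grhl1 without overlap and did not separate from each other. Dlx3 (64.3 ± 16.8 CPM) and Prdm1 (53.6 ± 16.7 CPM) formed the next step and overlapped. Grhl3 (19.6 ± 6.81 CPM) and Ovol1 (8.36 ± 2.75 CPM) were the scarcest, with Grhl3 the higher in each of the 4 wild-type mice. By mean level over all mice, Klf5 stood at percentile 98.9 of the genes tested and Ovol1 at percentile 31.4.

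Trp63, the regulator of the basal layer, lies on the plus strand of chromosome 16 at 25502513 to 25710852 (mm39). It was at 100.05, 104 and 78.5 CPM for knockout mice 2, 3 and 4, set against 206, 107, 88.9 and 162 CPM for wild-type mice 5, 6, 7 and 8. Knockout mice 2 and 3 lay inside the wild-type range, and wild-type mice 5 and 8 were well above the rest. The fitted change on the log2 scale (log2 fold change) was -0.58 (SE 0.32), and its 95% interval put the knockout between 41.5% and 108% of the wild-type level. By exact permutation of the genotypes (two-sided, 35 ways to divide the mice) p was 0.229 (adjusted p = 0.900 over all genes tested), where the smallest possible p is 0.0286. Counts were summed over the gene, so the isoforms of p63, which differ in their start and their end, were not resolved. Trp63 made up 89.7% of the summed level of the p53 family in wild-type skin, with Trp53 next at 14.2 ± 13.9 CPM.

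Zfp750 encodes a zinc finger protein that p63 switches on in differentiating keratinocytes (chromosome 11, 121401804 to 121410159, minus strand, mm39). It was at 120, 53.2 and 65.9 CPM for knockout mice 2, 3 and 4, and at 146, 124, 121 and 87.5 CPM for wild-type mice 5, 6, 7 and 8. Knockout mice 3 and 4 lay below each wild-type mouse, and knockout mouse 2 lay just below wild-type mice 6 and 7. Zfp750 had a log2 fold change of -0.59 (SE 0.33), with an interval of 40.6% to 109% of the wild-type level and an exact permutation p = 0.143 (adjusted p = 0.850). Without knockout mouse 2 the fitted change was -1.01 (edgeR adjusted p = 0.617), and without knockout mouse 3 it was -0.37. Mouse 2 was also the library with most inner root sheath transcripts of the growing hair, 615 CPM summed over the list of 9 against 3.92 to 33.4 CPM in the other 6. Without the filter edgeR called 4 of the list higher (Krt25, Krt27, Krt71 and Tchh), of which the first 3 had counts in mouse 2 alone. Their part in the level of Zfp750 was not tested.

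The grainyhead factors build the barrier and cell junctions. Grhl1, which is known to act on the desmosomal cadherin genes, lies on chromosome 12 at 24622282 to 24667390 (plus strand, mm39). It stood at 216, 205 and 272 CPM for knockout mice 2, 3 and 4, set against 312, 296, 333 and 240 CPM for wild-type mice 5, 6, 7 and 8. Only knockout mouse 4 reached the wild-type range, by exceeding wild-type mouse 8. Grhl1 had a log2 fold change of -0.35 (SE 0.22), an interval of 56.4% to 109% of wild type and an exact permutation p = 0.114 (adjusted p = 0.850). The cadherin gene Dsg1a, named after its values were seen, was at 390 ± 49.3 CPM with the knockout, compared with 504 ± 51.4 CPM in wild type (log2 fold change -0.37, SE 0.20, edgeR adjusted p = 1.00). Other desmosomal cadherin genes are not given here, and a link between Dsg1a and Grhl1 was not tested.

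Grhl3, required for barrier formation and epidermal wound closure (chromosome 4, 135269199 to 135300941, minus strand, mm39), was at 10.6, 17.9 and 0.921 CPM for knockout mice 2, 3 and 4. For wild-type mice 5, 6, 7 and 8 it was at 19.8, 21.5, 10.3 and 26.6 CPM. Knockout mouse 4 stood apart with 7 counts, for which counting error alone (exact Poisson 95% interval) allows 0.370 to 1.90 CPM, below the next lowest mouse at 10.3 CPM. Grhl3 had a fitted log2 fold change of -0.99 (SE 1.08), with an interval from 10.03% to 252% of wild type and an exact permutation p = 0.114 (adjusted p = 0.850). Without knockout mouse 4 the change was -0.46, and without knockout mouse 3 it was -1.76. Grhl1 was the dominant grainyhead gene, at 87.0% of the family's summed wild-type level, ahead of Grhl2 (24.4 ± 9.53 CPM) and Grhl3.

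Gata3 is needed for the inner root sheath of the hair and for barrier lipids, and it is also a T cell factor (chromosome 2, 9861889 to 9894845, minus strand, mm39). It was at 482, 580.5 and 585 CPM for knockout mice 2, 3 and 4, set against 716, 606, 750 and 485 CPM for wild-type mice 5, 6, 7 and 8. Wild-type mouse 8 lay among the knockout mice, and the other 3 wild-type mice lay above them. Gata3 had a log2 fold change of -0.22 (SE 0.21), an interval of 62.5% to 118% of wild type and an exact permutation p = 0.200 (adjusted p = 0.900). Gata3 held 97.6% of the GATA family's summed level in wild-type skin. Of its relatives, Gata2 came next at 12.7 ± 8.47 CPM, and Gata4 and Gata5 had 0 counts in the 7 libraries. The 13 T cell markers summed to 205 to 432 CPM with the knockout, compared with 235 to 354 CPM in wild type. Of the 10 tested, 6 lay above 0 and 4 below, with a median log2 fold change of 0.41. The most abundant, Thy1, was at 185 ± 71.7 CPM with the knockout and 133 ± 43.7 CPM in wild type. The T cell receptor gene Trdc was at 38.6 ± 18.8 and 62.2 ± 43.9 CPM, and Cd5 had 0 counts. The part of T cells in the level of Gata3 was not tested.

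Klf4 and Klf5 are zinc finger factors of the Krüppel-like family, Klf5 acting in proliferating basal cells and Klf4 in barrier formation in the upper layers. Klf4 (chromosome 4, 55527143 to 55532466, minus strand, mm39) was at 261, 285 and 343 CPM for knockout mice 2, 3 and 4, set against 435, 315, 486 and 272 CPM for wild-type mice 5, 6, 7 and 8. Wild-type mice 5 and 7 were high, and wild-type mice 6 and 8 lay within the knockout range. The log2 fold change was -0.35 (SE 0.24), an interval of 54.4% to 113% of wild type, with an exact permutation p = 0.314 (adjusted p = 0.915).

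Klf5 (chromosome 14, 99536127 to 99552472, plus strand, mm39) was at 621, 551 and 633 CPM for knockout mice 2, 3 and 4, set against 737, 754, 732 and 558 CPM for wild-type mice 5, 6, 7 and 8. Wild-type mice 5, 6 and 7 were close together and above the knockout mice, and wild-type mouse 8 lay inside the knockout range. The log2 fold change was -0.21 (SE 0.20), and the interval of 64.5% to 116% of wild type was the narrowest of the 10. The exact permutation p was 0.171 (adjusted p = 0.877). Within the Krüppel-like family Klf5 held 39.1% and Klf4 21.2% of the summed wild-type level, and 12 of the 17 genes had enough counts to be tested. Klf6, next in level and an early response gene as well, was at 79.3 ± 28.5 CPM with the knockout, compared with 167 ± 51.0 CPM in wild type, and had the smallest p among relatives of the 10 factors (log2 fold change -1.07, SE 0.34, edgeR adjusted p = 0.869).

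Ovol1, which restrains division as keratinocytes leave the basal layer (chromosome 19, 5599164 to 5610674, minus strand, mm39), was at 19.9, 13.9 and 11.7 CPM for knockout mice 2, 3 and 4. It was at 12.1, 8.33, 7.61 and 5.45 CPM for wild-type mice 5, 6, 7 and 8. Knockout mouse 4 lay just below wild-type mouse 5, and the other 5 mice did not mix by group. Ovol1 had a log2 fold change of 0.86 (SE 1.12), with an interval from 34.0% to 967% of wild type and an exact permutation p = 0.0857 (adjusted p = 0.838). An antisense gene whose exons overlap those of Ovol1, Gm31166, held 85 counts beside the 659 of Ovol1, and the sources used here do not say whether counting used the strand. Its relative Ovol2 was at 12.7 ± 10.04 CPM in wild-type skin, with overlapping spread, and Ovol3 had 0 counts. By mouse, Ovol2 was at 11.8, 7.32, 27.0 and 4.46 CPM for wild-type mice 5, 6, 7 and 8. It exceeded Ovol1 in mouse 7 only.

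Dlx3, a homeobox factor of the upper epidermis and the hair follicle (chromosome 11, 95010945 to 95016122, plus strand, mm39), was at 75.8, 119 and 47.7 CPM for knockout mice 2, 3 and 4. It was at 85.2, 45.0, 58.9 and 68.2 CPM for wild-type mice 5, 6, 7 and 8. Knockout mouse 3 was the highest of the 7 and the other two lay inside the wild-type range. The log2 fold change of 0.33 (SE 0.37) became -0.06 without knockout mouse 3 (exact permutation p = 0.543 over the 7 mice, adjusted p = 0.963). The interval ran from 72.1% to 219% of wild type. Of the relatives, Dlx5 was at 9.66 ± 8.99 CPM in wild-type skin and 0.149 ± 0.259 CPM in knockout skin, where 1 mouse had 4 counts and the others 0 (edgeR adjusted p = 1.00).

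Prdm1 encodes Blimp1, a repressor of transcription that acts in terminal differentiation and in plasma cells (chromosome 10, 44313173 to 44404497, minus strand, mm39). The Prdm1 transcript was at 71.6, 33.9 and 48.9 CPM for knockout mice 2, 3 and 4. It was at 58.2, 35.8, 45.8 and 74.5 CPM for wild-type mice 5, 6, 7 and 8. The groups covered nearly the same range, and the fitted log2 fold change was -0.06 (SE 0.41) at an interval of 52.3% to 177% of wild type and an exact permutation p = 0.857 (adjusted p = 0.995). Its direction turned without knockout mouse 3 (0.17) and without wild-type mouse 8 (0.14). The B cell genes Cd79a, Cd79b and Ms4a1 had 0 counts in the 7 libraries, and so had Mzb1, a marker of plasma cells. The B and plasma cell list summed to 134 to 430 CPM with the knockout and 77.8 to 244 CPM in wild type. EdgeR without the filter called 1 of it higher (Igkc). Igkc was at 98.4, 6.05 and 305 CPM for knockout mice 2, 3 and 4. It was at 11.5, 76.5, 0.368 and 0.124 CPM for wild-type mice 5, 6, 7 and 8, with overlap. Ighm, the most abundant of the list in wild-type skin, was lower with the knockout, at 100 ± 45.4 CPM against 142 ± 49.6 CPM. The part of B and plasma cells in the level of Prdm1 was not tested. Of its relatives, Prdm2 was nearest in level at 35.6 ± 15.3 CPM in wild-type skin. A count of 0 allows a level of up to 0.395 CPM, for counting error only. This bound does not cover a 3' end that was missed in capture or counting.

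**Figure D2:**
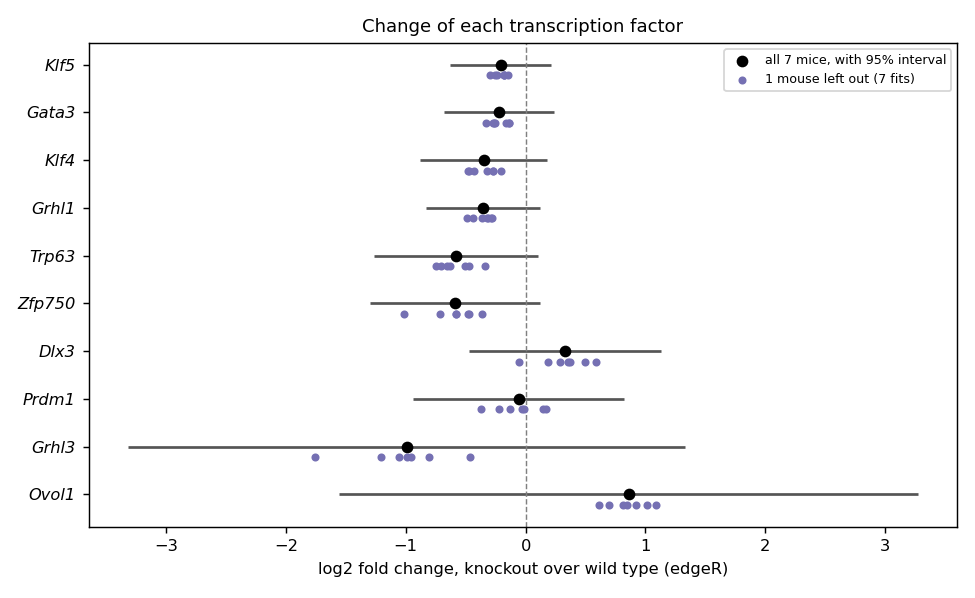
Log2 fold change (knockout over wild type) of the 10 factors, from edgeR, as black points with 95% intervals, and in purple the fitted values with each of the 7 mice left out in turn. The interval crosses 0 for each factor and is widest for Grhl3 and Ovol1, the 2 scarcest.

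The precision differed between the factors. The biological coefficient of variation assigned by the fit was 22.9% for Klf5, 24.1% for Gata3, 24.8% for Grhl1 and 26.5% for Klf4, and 94.96% for Grhl3 and 99.7% for Ovol1. For Klf5 a fall to under 64.5% of the wild-type level lay outside the interval, while for Grhl3 neither a 10.03% level nor a 252% level did. A p above the threshold does not show equal levels.

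Grhl1, Gata3, Klf4, Klf5 and Zfp750 shared a pattern across mice, in which wild-type mouse 8 was the lowest wild-type mouse and lay within the knockout range. The early response genes, which cells switch on within minutes of stimulation or handling, had the same mouse near the knockout level. Their 18 listed genes summed to 1864, 1747 and 1933 CPM for knockout mice 2, 3 and 4, set against 6489, 3493, 5554 and 2027 CPM for wild-type mice 5, 6, 7 and 8. These sums did not overlap. In 17 of the 18 the fitted change lay below 0 (median log2 fold change -0.97), and 0 were called with edgeR, where 10 had an unadjusted p under 0.05. DESeq2 called 2 lower, limma-voom 1 and edgeR without the filter 8, Egr1, Fos, Fosb, Junb, Atf3, Btg2, Dusp1 and Nr4a1. Egr1 was at 308 ± 7.66 CPM with the knockout, compared with 685 ± 247 CPM in wild type. The part of these genes in the levels of the factors was not tested.

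Across the 7 mice, 55 relations were computed on the log2 scale, 45 between pairs of factors and 10 between a factor and the mean of 16 keratinocyte genes. None passed the adjustment, by Pearson or Spearman, and 4 had an unadjusted Pearson p under 0.05. The closest was that of Gata3 and Klf4, with Pearson's r = 0.947 (exact permutation p = 0.000992, adjusted p = 0.0546) and Spearman's rho = 0.964 (exact permutation p = 0.00278, adjusted p = 0.153). Without mice 5 and 7, the farthest from the median of Gata3, r was 0.808. Within the 4 wild-type mice alone r was 0.966, given without a test. Grhl1 followed Klf4 with r = 0.879 and rho = 0.857 (exact permutation p = 0.0109 and 0.0238, adjusted p = 0.300 and 0.262) and Klf5 with r = 0.879 and rho = 0.821 (exact permutation p = 0.0171 and 0.0341, adjusted p = 0.313 and 0.268). Without mice 2 and 3 these were r = 0.904 and 0.914, and within the 4 wild-type mice 0.909 and 0.907. Of the 45 pairs 25 had an r above 0. Outside the lists, the genes whose levels most resembled the mean profile of the 10 over the 7 libraries were Brk1 (r = 0.953), Dapl1 (r = 0.945) and Tnfaip2 (r = 0.945), given as a description, since these are the best of all genes tested.

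**Figure D3:**
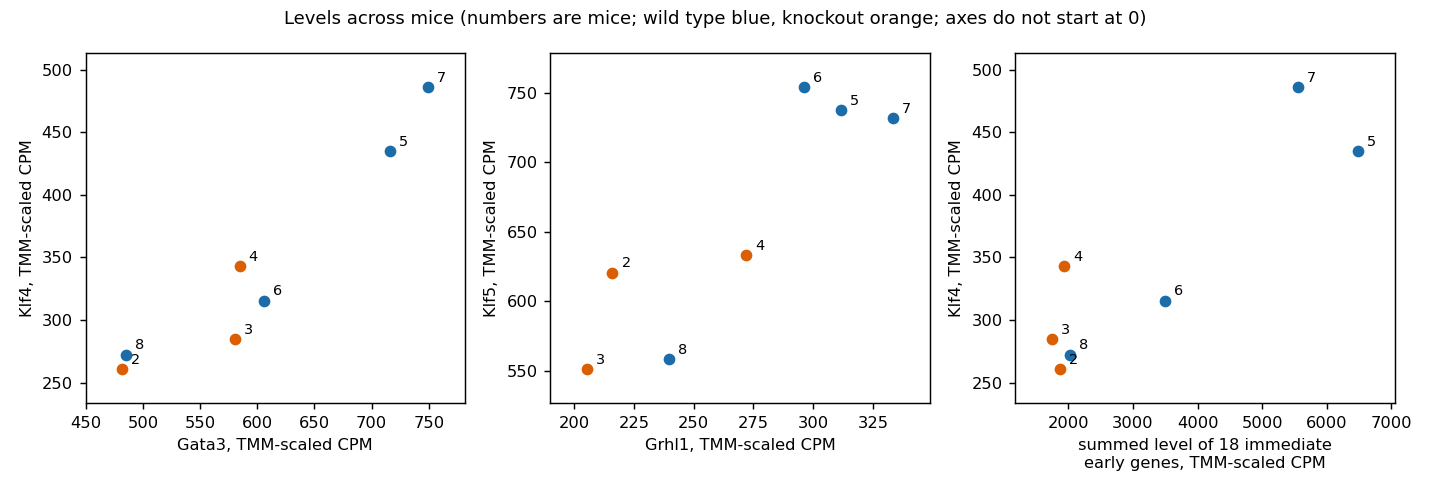
TMM-scaled CPM of Klf4 against Gata3, of Klf5 against Grhl1 and of Klf4 against the summed level of 18 early response genes, 1 point per mouse (wild type blue, knockout orange; axes do not start at 0). Wild-type mice 5 and 7 are high in Gata3 and Klf4, and wild-type mouse 8 lies beside the knockout mice in each panel.

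The stretch before the transcription start is shown for Gata3 and Klf4, the pair that moved most closely together. It was taken from RefSeq (GRCm38.p6, a different build from that of the counts), which held windows for 5 of the 10 genes (Gata3, Klf4, Grhl1, Grhl3 and Prdm1). Each run is 250 bases, 5′ to 3′ on the gene's strand (minus for both), at chr2:9878601-9878850 for Gata3 and chr4:55532476-55532725 for Klf4. Capitals mark the motifs searched on both strands.
Gata3: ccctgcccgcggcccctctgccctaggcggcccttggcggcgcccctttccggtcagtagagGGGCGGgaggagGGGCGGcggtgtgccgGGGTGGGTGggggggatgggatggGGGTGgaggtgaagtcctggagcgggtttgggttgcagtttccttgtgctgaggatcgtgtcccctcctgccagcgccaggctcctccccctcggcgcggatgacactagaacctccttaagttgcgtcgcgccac
Klf4: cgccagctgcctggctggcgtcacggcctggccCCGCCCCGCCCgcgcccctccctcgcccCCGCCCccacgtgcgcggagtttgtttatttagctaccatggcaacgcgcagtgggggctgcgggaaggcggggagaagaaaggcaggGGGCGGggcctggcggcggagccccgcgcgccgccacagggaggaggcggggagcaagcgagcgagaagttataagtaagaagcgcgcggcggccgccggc
Motifs searched were the GC box GGGCGG and the CACCC box CACCC, both of a kind that Sp and Krüppel-like factors bind, the CCAAT box CCAAT, the TATA box TATAAA and the GATA motif AGATAA. The Gata3 stretch held 2 GC boxes and 3 CACCC boxes, of which 2 overlap, and the Klf4 stretch held 4 GC boxes, of which 2 overlap, and no CACCC box. Of 32851 windows of the same length, 32.7% held a GC box and 52.0% a CACCC box. The CCAAT box (33.9% of windows), the TATA box (12.4%) and the GATA motif (9.99%) were found in neither. The bases were 70.0% G or C for Gata3 and 74.0% for Klf4, against a median of 52.4%. These matches are a description of the letters.

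Set against the keratinocytes in each piece of skin, the picture was similar. The 16 keratinocyte genes summed to 12193, 12623 and 13712 CPM for knockout mice 2, 3 and 4, set against 15971, 12821, 13019 and 11591 CPM for wild-type mice 5, 6, 7 and 8, with overlap. The most abundant, named after their values were seen, were Krt5, Krt14, Dsp, Sfn and Perp. Of the 16, 2 were separated with the knockout lower, Perp among them, against 3.45% of all genes tested. The scale thus holds genes whose ranges were separated between the groups, although 0 of the 16 had an edgeR unadjusted p under 0.05. Per 1000 counts of these genes, Klf5 was at 46.9 ± 3.68 (SD, n = 3) with the knockout, compared with 52.3 ± 6.12 (SD, n = 4) in wild type, and Trp63 at 7.39 ± 1.44 and 10.51 ± 3.48. Ovol1 was at 1.63, 1.10 and 0.854 for knockout mice 2, 3 and 4, set against 0.755, 0.650, 0.585 and 0.470 for wild-type mice 5, 6, 7 and 8. On this scale the groups did not overlap for Ovol1, as for 3.63% of all genes tested with the knockout higher. They overlapped for the other 9 factors, where 2.82% of all genes were separated with the knockout lower. Scaling the edgeR fit by the same genes gave Ovol1 a log2 fold change of 0.96 and called 0 of the 10.

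Genes that these factors are known to control, and other regulators beside them, were counted from lists of known genes. Of 26 other tested regulators of epidermal transcription, edgeR called 0, with 10 above and 16 below 0, a median log2 fold change of -0.08 and 4 at an unadjusted p under 0.05. DESeq2 called 1 of them higher, and limma-voom and edgeR without the filter called 0. Vdr, the vitamin D receptor, was at 91.7 ± 26.2 CPM with the knockout, compared with 32.9 ± 9.76 CPM in wild type (log2 fold change 1.48, SE 0.38, edgeR adjusted p = 0.519), and was the one that DESeq2 called. Maf, a differentiation factor, was at 464 ± 44.1 CPM and 315 ± 43.3 CPM (edgeR adjusted p = 1.00). Cebpa, named after its values were seen, stood at 104, 117 and 101 CPM for knockout mice 2, 3 and 4, set against 170, 179, 165 and 150 CPM for wild-type mice 5, 6, 7 and 8 (log2 fold change -0.63, SE 0.23, edgeR adjusted p = 1.00). It encodes a factor of keratinocytes and of fat cells. The 13 fat cell markers summed to 3510 to 5866 CPM with the knockout, compared with 8472 to 14548 CPM in wild type, without overlap and with each of the 13 detected in some library. Of these markers 12 lay below 0 (median -1.42) and 11 had an unadjusted p under 0.05. EdgeR called 0, while DESeq2 and edgeR without the filter called 8 lower each and limma-voom 6. Their part in the level of Cebpa was not tested.

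In the Notch pathway, which drives cells from the basal to the spinous layer, edgeR called 0 of 14 tested genes, with 6 above and 8 below 0 and a median of -0.20. At an unadjusted p under 0.05 stood 2 of them, and DESeq2, limma-voom and edgeR without the filter called 0. The ligand gene Jag1 was at 66.4 ± 34.6 CPM with the knockout, compared with 119 ± 27.7 CPM in wild type (log2 fold change -0.84, SE 0.36), and the protease gene Adam10 at 17.2 ± 8.30 and 42.3 ± 13.7 CPM (log2 fold change -1.29, SE 0.58). Notch1 had 0 counts in the 7 libraries, while Notch2 was at 86.1 ± 17.2 CPM in wild-type skin. Whether the 0 stands for absent RNA or for a 3' end missed in capture or counting was not tested.

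Basal keratinocyte genes, which p63 sustains, had 7 of 15 above and 8 below 0 with a median of -0.02, and edgeR (with and without the filter), DESeq2 and limma-voom called 0 (1 at an unadjusted p under 0.05 with edgeR). The integrin genes Itga3 and Itga6 had the smallest p, at 39.6 ± 10.1 against 70.6 ± 21.9 CPM and at 165 ± 40.7 against 231 ± 39.0 CPM in knockout and wild-type skin. Genes of the suprabasal layers and cornified envelope had 9 of 31 above and 22 below 0, with a median of -0.26 and 7 at an unadjusted p under 0.05. EdgeR called 0 of them, DESeq2 called Flg higher and Lce1m lower, limma-voom called Lce1m lower, and edgeR without the filter called Sprr1a higher and Lce1m lower. Their summed level was 28446, 26331 and 20205 CPM for knockout mice 2, 3 and 4 and 32716, 31268, 36446 and 29647 CPM for wild-type mice 5, 6, 7 and 8, and these did not overlap. The envelope gene Lce1m was at 834 ± 206 CPM with the knockout, compared with 1632 ± 276 CPM in wild type (log2 fold change -0.97, SE 0.22, edgeR adjusted p = 0.406). The opposite direction was seen for Flg, the gene of filaggrin, at 146 ± 20.8 and 68.5 ± 15.3 CPM (log2 fold change 1.09, SE 0.28, edgeR adjusted p = 0.519). Lor and Krt10, named after their values were seen as the most abundant of the list, were at 4065 ± 384 and 3529 ± 881 CPM in knockout skin, against 6170 ± 1385 and 4954 ± 657 CPM in wild-type skin.

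Barrier lipid genes, a reported target of Gata3 and Grhl factors, had 9 of 20 above and 11 below 0 (median -0.09), with 5 at an unadjusted p under 0.05. EdgeR called 0, DESeq2 and limma-voom called 1 higher each, and edgeR without the filter called 3 higher (Elovl3, Fa2h and Slc27a4). Their summed level was higher in the knockout without overlap, at 2213 to 2847 CPM against 1904 to 2174 CPM. Elovl4, a fatty acid elongase named after its values were seen, made up 32.3% of that sum with the knockout and 27.2% in wild type. It was at 824 ± 165 CPM with the knockout, compared with 558 ± 94.4 CPM in wild type, with overlap (edgeR adjusted p = 1.00). Slc27a4, a fatty acid transporter, was at 160 ± 92.3 CPM with the knockout, compared with 46.5 ± 7.88 CPM in wild type, and Fa2h, a fatty acid hydroxylase, at 485 ± 174 and 194 ± 70.4 CPM (edgeR adjusted p = 0.254 and 0.503). Regulators of the hair follicle had 11 of 13 above and 2 below 0, with a median of 0.79 and 5 at an unadjusted p under 0.05. EdgeR called 0, DESeq2 called 2 higher (Lhx2 and Vdr, which is on the regulator list too), and limma-voom and edgeR without the filter called Lhx2 and Sox9 higher. Their sum was 1066 to 1589 CPM in the knockout mice and 551 to 847 CPM in wild type, without overlap. Lhx2 was at 141 ± 61.1 CPM with the knockout, compared with 31.1 ± 15.8 CPM in wild type, and Sox9 at 500.2 ± 209 and 214 ± 67.3 CPM (edgeR adjusted p = 0.329 and 0.503). Of the 12 sebaceous gland markers tested 11 lay above 0 (median 0.76, 5 at an unadjusted p under 0.05), edgeR and limma-voom called 0, DESeq2 1 higher and edgeR without the filter 2 higher, with the summed level of the list at 1742 to 3759 CPM with the knockout, compared with 1443 to 2133 CPM in wild type. The part of follicle and gland content in the levels of Gata3, Dlx3, Prdm1 and Ovol1 was not tested.

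**Figure D4:**
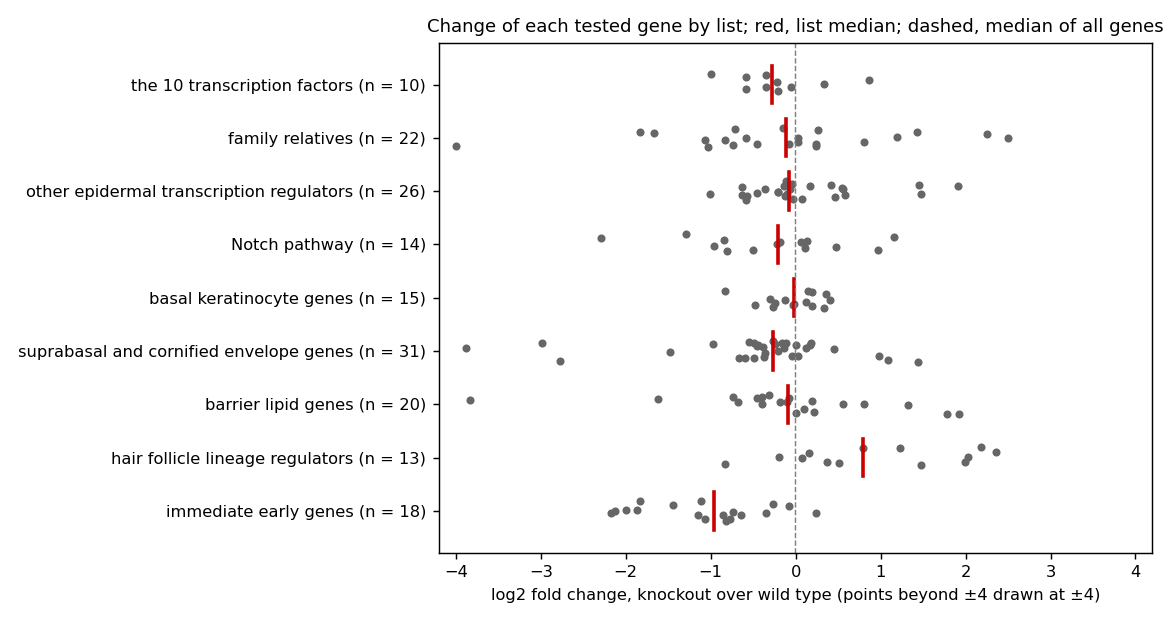
Log2 fold change (knockout over wild type) of each tested gene of 9 lists, with the list median in red and the median of all genes tested as a dashed line. The 10 factors have a median of -0.28, near the suprabasal and cornified envelope list at -0.26 and the Notch pathway at -0.20. The basal list lies at -0.02, the early response genes at -0.97 and the hair follicle regulators at 0.79.

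Among the other cell types that express some of these factors, smooth muscle markers summed to 548 to 869 CPM with the knockout, compared with 749 to 1116 CPM in wild type, with 2 of 8 above 0, a median of -0.26 and 0 at an unadjusted p under 0.05. Endothelial markers summed to 176 to 252 CPM and 231 to 350 CPM, with 2 of 10 above 0, a median of -0.79 and 3 at an unadjusted p under 0.05. Both sums overlap between the groups, and edgeR (with and without the filter), DESeq2 and limma-voom called 0 of either list. The levels of 2 of the 10 endothelial genes, Pecam1 and Tek, were separated with the knockout lower, against 3.45% of all genes tested. Tek, a receptor gene, had 0 counts in the 3 knockout mice and 18 to 83 counts in each wild-type mouse. It passed the expression filter through its wild-type counts alone, so its separation cannot be set against that share. Cdh5 and Egfl7, named after their values were seen, were close between the groups. Cdh5 was at 31.9 ± 12.3 CPM with the knockout and 31.6 ± 9.75 CPM in wild type, and Egfl7 at 46.7 ± 9.31 and 47.9 ± 18.5 CPM. Pecam1, the most abundant endothelial marker, was at 30.9 ± 11.9 CPM with the knockout, compared with 64.7 ± 16.3 CPM in wild type (edgeR adjusted p = 1.00). Des led the smooth muscle list at 430 ± 133 and 529 ± 90.3 CPM. It made up 57.1% of the list's sum with the knockout and 58.3% in wild type, so the sum largely follows Des. Whether Des came from smooth muscle was not tested. Of the mammary epithelium list, Krt8, Csn2, Csn3, Wap and Lalba had 0 counts in the 7 libraries. The 2 genes tested lay above 0. Prlr had a mean of 57.7 CPM with the knockout, compared with 27.2 CPM in wild type, and Esr1 32.4 and 20.5 CPM. Levels of these 2 overlapped between the groups, and edgeR called 0. Krt18, named after its values were seen, had counts in knockout mouse 2 alone, at 6.34 CPM. Elf5, named likewise, was at 0.129 CPM in knockout mouse 2 and 0.112 CPM in knockout mouse 3. Both Elf5 values lie below the 0.395 CPM that 0 counts allow. The list summed to 65.1 to 130 CPM with the knockout, compared with 9.70 to 82.3 CPM in wild type, with overlap. The part of these cells in the levels of Klf4, Klf5 and Gata3 was not tested.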

How the data were processed

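RNA of powdered frozen skin was made into QuantSeq 3' mRNA libraries, per the labels' protocols. Counts per gene, in whole numbers, were deposited by the authors. Named in the submitters' processing notes, without order, are the build mm39 and edgeR 3.36.0, Subread 2.0.3, featureCounts, GATK 4.2.4.0 and STAR. A second table, deposited by the authors, holds filtered log2 CPM values of 12954 genes, the 10 factors among them. It served to check the scaling (90678 of 90678 values recovered within 1e-09) and as an alternative gene set. Strand use and duplicate removal are not given in the sources used here.

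Counts were analysed in edgeR 4.0.16 (R 4.3.3) with its expression filter (minimum count 10), TMM factors and the quasi-likelihood F test over the 7 libraries, adjusted over 12888 genes, at a threshold of 0.05. Alternatives used DESeq2 1.42.0 and limma 3.58.1. Log2 CPM used a prior count of 2. The common biological coefficient of variation was 108%. The procedure was tested on simulated data. No batch or date is given in the labels, and mice are numbered without pairing.

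The 10 factors and the 17 other lists were chosen with earlier results of these data known. Of each other list, called genes or the 2 with the smallest p were named, plus the most abundant of a marker list, the leading relative of each family, 3 genes of like profile and Tuft1. Not each gene so allowed is printed, and those outside the rule are marked.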

Additional observations from a re-analysis of the deposited data

Results flagged for a closer look

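Of 55 groups of 4 wild-type log2 CPM values of named genes, 5 had 1 mouse set apart by a wide gap; by chance about 1 in 20, or 2.75, would. Among the 10 factors this was Klf5, with 9.13 for wild-type mouse 8 while the remaining mice had 9.52 to 9.56. For Tuft1, wild-type mouse 7 had 5.80 and the rest 6.70 to 6.84. For Gata2, the relative of Gata3, wild-type mouse 5 had -2.07, the value of 0 counts, and the rest 4.04 to 4.18. For Esr1 it was 1.06 in mouse 7 and 4.53 to 4.89. For Tek it was 1.30 in mouse 8 and 2.96 to 3.20.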

How the results depend on the processing

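The 10 factors had 0 calls in each of the 13 alternatives, with no adjusted p for a factor below 0.602 over these fits and tools. Of 130 refitted changes 127 kept their direction, and those of 8 factors did so throughout. With 1 mouse left out Dlx3 ranged from -0.058 to 0.59 and Prdm1 from -0.38 to 0.17 (0.14 without wild-type mouse 8). The median of the 10 stayed between -0.39 and -0.19. At an unadjusted p under 0.05 stood 1 factor without knockout mouse 2 (Zfp750) and 1 without wild-type mouse 7 (Trp63). Over all genes, 3 were called, against 101 with the DESeq2 Wald test, 22 with limma-voom, 76 without a filter, 1 with the keratinocyte list scaling and 0 to 1 with a mouse left out. The cause was not tested. No paired analysis was possible because the groups share no mouse number. With 3 and 4 mice, intervals of the scarce factors Grhl3 and Ovol1 span over 10-fold.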
